A study of Mus musculus with 9 samples.

Results

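The proteasome subunit genes were examined in mouse mammary tumour cells on 9 dual-colour Agilent arrays. Members were all non-control probes whose gene name in the array design begins with Psma, Psmb, Psmc, Psmd, Psme, Psmf or Psmg and continues with a number. This rule gave 43 genes of 27575, through 66 of 41174 probes, and 0 of them carried a Psmg name. All 43 genes and 64 of the 66 probes passed the filter on dim probes, which asked for a Cy5 signal well above background on at least 4 arrays, and the 2 probes below it were second probes of Psma2 and Psmd11. Fzd8-CRD treatment marked 5 arrays, and 4 were labelled Control. Fzd8-CRD is a soluble inhibitor made of the part of Frizzled 8 that binds Wnt. The labels attach the same 2 tumour sources to every array, MMTV Wnt-1 and MMTV-Her2, in which the Wnt-1 ligand or the Her2 receptor is expressed from the promoter of a mammary tumour virus. The 2 models therefore cannot be separated. All samples were freshly isolated cells sorted as GFP-. A field of the labels names the inhibitor for the control arrays too, and the sources used here do not give what these received in its place, nor age or strain. The design text calls the arrays biological replicates.

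The proteasome is the protease that degrades ubiquitin-tagged proteins in the cytosol and nucleus. Its 20S core is a barrel of stacked alpha and beta rings, in which 3 beta subunits carry the cutting sites. A 19S cap of ATPase and non-ATPase subunits recognises, unfolds and feeds in the substrate. Cells exposed to interferon gamma exchange the cutting subunits Psmb5, Psmb6 and Psmb7 for Psmb8, Psmb9 and Psmb10, which favours peptides that fit MHC class I molecules. When proteasome activity is short, the transcription factor Nfe2l1 can raise the genes of many subunits together. Nfe2l2, a transcription factor of oxidative stress, can also raise subunit genes.

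The measured quantity was the log2 ratio of Cy5, the tumour cell RNA, to Cy3, a pooled RNA on every array. Differences are Fzd8-CRD minus control in log2 units, each with its standard error (SE) from the model. A gene was called where limma's p, adjusted over all 18270 genes tested by the Benjamini-Hochberg method, was under 0.05. Over all genes 14.3% were called, 6.6% higher and 7.75% lower, and the median difference was -0.07. All control arrays lay on 1 slide scanned on 1 day, and the Fzd8-CRD arrays on 4 other slides scanned 367 and 378 days later, so slide, scan day and treatment cannot be told apart. The share of probes well above background in Cy5 was 53.1% to 60.6% per Fzd8-CRD array and 64.6% to 71.5% per control array. Control replicate 2 stood apart, with correlations of 0.618 to 0.737 to the remaining arrays, and had the highest medians of lymphocyte, macrophage, MHC class II, fibroblast and erythrocyte markers. All 10 mammary epithelial markers, among them Krt8, Krt18 and Epcam, were above background on every array.

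Proteasome genes were lower in Fzd8-CRD cells across the core, the cap and the assembly factors. Lower were 9 of the 14 standard core genes, 6 of the 17 cap genes and all 3 assembly factors, with the immune subunit Psmb8. Of the 43 genes, 19 were lower (44.2%, against 7.75% of all genes) and 0 were higher (against 6.6%). The difference was negative for 40 of the 43 genes, where 10405 of all 18270 genes were negative. The median over the 43 was -0.58, against -0.07 over all genes. With the filter asking for signal above background on all 9 arrays, which leaves out Psma8, 39 of 42 were negative. There 19 were lower (45.2%, against 8.32% of all genes). A downward difference of at least 2-fold was seen for 8 genes. The smallest of these was Psmb9 (-1.01), which was not called (adjusted p = 0.0729). It ranked at 4.79% of all genes tested, counted from the most negative difference. The groups did not overlap for 23 genes, all of them lower in Fzd8-CRD cells, where 19.6% of all genes did not overlap and 11.7% were lower without overlap. At probe level 25 of the 64 kept probes were lower and 0 higher, against 7.84% and 6.77% of all probes (14.6% in either direction). Relative to each gene's mean over the 9 arrays, the median of the 43 genes lay between -0.38 and -0.13 on the Fzd8-CRD arrays, and between 0.28 and 0.36 on the control arrays. The array medians of the 2 groups thus stood apart, and control replicate 2 (0.30) lay among the other controls. Without that array 24 genes were lower (55.8%, against 9.55% of all genes). With median centring in place of loess within each array 2 of the 43 were lower (1.66% of all genes), and with the closest array pairs of each group averaged 3 were lower (1.17% of all genes), while 40 differences stayed negative in both. By the scanner's own ratio 16 were lower (37.2%, against 6.66% of all genes), without Psma5, Psmb6, Psmc1, Psmd5 and Psmd9 and with Psma8 and Psmf1. Of these, Psma8 exceeded background on 0 of 5 Fzd8-CRD arrays and passed the filter through the controls alone, so its count adds no support.

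**Figure D1:**
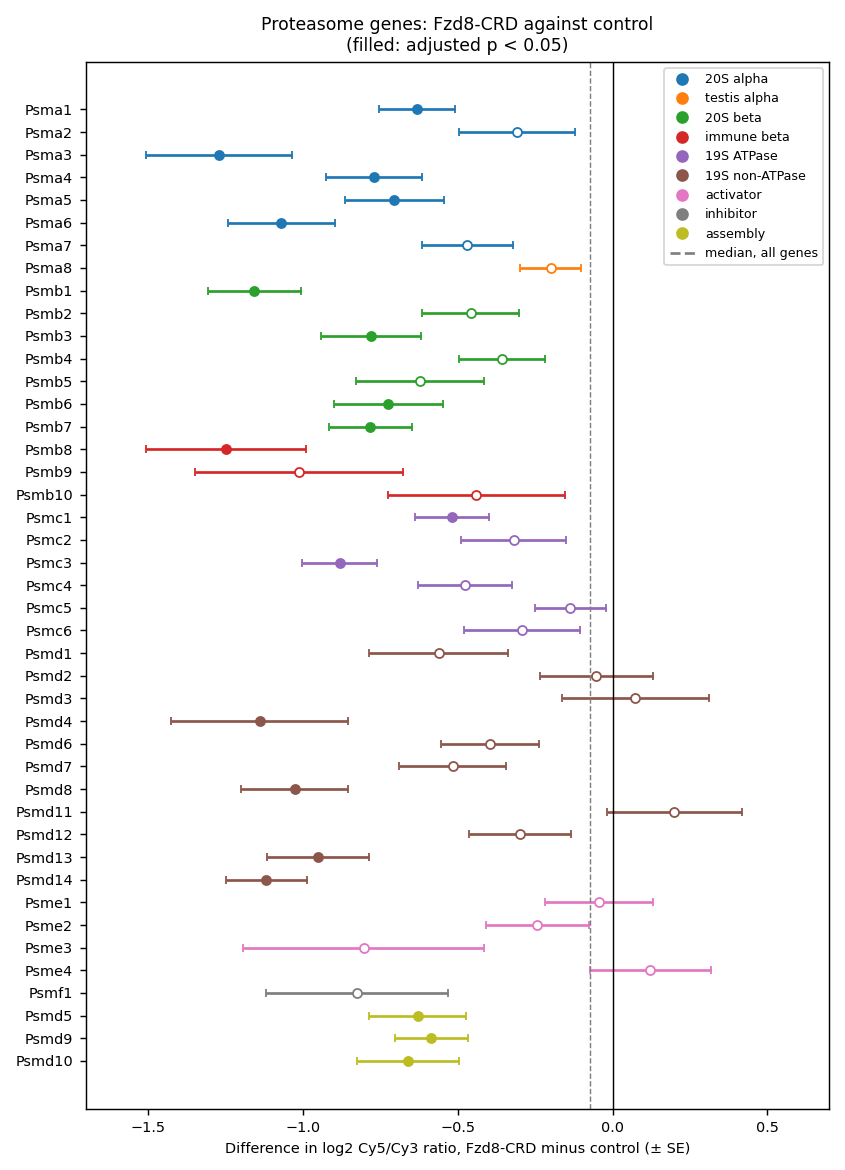
Difference in log2 Cy5/Cy3 ratio, Fzd8-CRD minus control, for each of the 43 proteasome genes (points, with the SE of the fit as bars), coloured by class; filled points have adjusted p under 0.05 and the dashed line is the median of all genes, -0.07. The 19 filled points all lie below 0, the lowest being Psma3 at -1.27, and 3 genes (Psmd11, Psmd3 and Psme4) lie above 0.

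Most members are bright on these arrays. Among the 4568 brightest genes by Cy5 signal were 33 of the 43, and there 9.85% of all genes were lower and the median difference was -0.07. Of these 33 members 14 were lower, with a median of -0.52. Cell type markers also moved with the groups: all 8 endothelial markers were lower in Fzd8-CRD cells (7.75% of all genes), with a median difference of -2.18. Their array medians were -1.76 to -0.08 in the Fzd8-CRD group and 0.73 to 1.45 in the control group. Of the 8, 5 exceeded background on all 5 Fzd8-CRD arrays, but Tek did so on 2, Tie1 on 3 and Pecam1 on 4. Erythrocyte markers differed more: 3 of the 4 measured were lower and did not overlap, with a median difference of -3.65 over the 4. Their array medians were -1.96 to -0.82 in the Fzd8-CRD group and 0.68 to 5.12 in the control group, the highest being control replicate 2. Only 1 of the 4, Hba-a1, exceeded background on all 5 Fzd8-CRD arrays. The 8 fibroblast markers had a median difference of -1.34, with 6 negative and 1 lower, and their array medians overlapped between the groups. The 10 epithelial markers had array medians of -0.81 to 0.41 on the Fzd8-CRD arrays and -0.26 to 0.45 on the control arrays, which overlap, and 1 was higher and 1 lower. In these bulk samples fewer cells of a type and less RNA per cell cannot be told apart, and the part of cell composition in the proteasome result was not tested.

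The alpha subunits, which form the outer rings of the core and gate its entrance, had negative differences for all 7 genes, and 5 were lower, with a median of -0.70. Psma3 had the most negative difference of the 43 genes. Its log2 ratios were -0.99, -1.29, -0.46, -1.05 and -0.74 on the Fzd8-CRD arrays, against 0.75, -0.28, 0.42 and 0.56 on the control arrays, a difference of -1.27 (SE 0.24, adjusted p = 0.0108), or 2.41-fold lower. The highest Fzd8-CRD array stayed below the lowest control, which was control replicate 2. Psma6 ratios were -1.62, -1.76, -1.22, -1.96 and -1.64 on the Fzd8-CRD arrays, against -0.52, -0.84, -0.65 and -0.27 on the control arrays, a difference of -1.07 (SE 0.17, adjusted p = 0.00709). For Psma4 they were -1.38, -1.48, -1.53, -1.32 and -1.41 on the Fzd8-CRD arrays, against -0.95, -0.27, -0.90 and -0.51 on the control arrays (difference -0.77, SE 0.15, adjusted p = 0.0137). The 2 groups did not overlap for either gene, and the second Psma4 probe gave -0.76. Psma5 had ratios of -0.52, -0.63, -0.62, -0.54 and -0.87 on the Fzd8-CRD arrays, against 0.49, -0.28, 0.014 and 0.049 on the control arrays (difference -0.70, SE 0.16, adjusted p = 0.0203). Psma1 had -0.69, -0.87, -0.93, -0.73 and -1.13 on the Fzd8-CRD arrays, against -0.26, -0.37, -0.12 and -0.20 on the control arrays (difference -0.63, SE 0.12, adjusted p = 0.0123). Both were lower on every Fzd8-CRD array than on any control array, and the call of Psma5 was lost without control replicate 3. Psma7 (-0.47, adjusted p = 0.0611) and Psma2 (-0.31, adjusted p = 0.281) did not pass. Psma8, the alpha subunit of the male germ line, exceeded background on 0 of 5 Fzd8-CRD and 4 of 4 control arrays and so passed the filter through the controls alone. Its ratios, given as a description, were 0.038, 0.17, 0.11, 0.056 and 0.041 on the Fzd8-CRD arrays, against 0.26, 0.16, 0.35 and 0.37 on the control arrays. The mean difference of this dim gene was -0.20, against -1.60 by the scanner's own ratio and -1.33 from the authors' deposited table.

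The structural beta subunits Psmb1, Psmb2, Psmb3 and Psmb4 shape the inner rings without cutting. Psmb1 and Psmb3 were lower. Psmb1 ratios were -1.21, -1.56, -0.92, -1.43 and -1.04 on the Fzd8-CRD arrays, against -0.057, -0.041, -0.22 and 0.024 on the control arrays, a difference of -1.16 (SE 0.15, adjusted p = 0.00392) and 2.23-fold lower. The control values lay close together near 0, and every Fzd8-CRD value was far below them. Psmb3 ratios were -0.53, -0.18, -0.40, -0.37 and -0.99 on the Fzd8-CRD arrays, against 0.32, 0.28, 0.34 and 0.20 on the control arrays (difference -0.78, SE 0.16, adjusted p = 0.0149), and its other probe gave -1.28. The groups did not overlap. Psmb2 (-0.46, adjusted p = 0.0781) and Psmb4 (-0.36, adjusted p = 0.111) did not pass, although the Psmb4 groups did not overlap.

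The standard cutting subunits were compared with their immune counterparts. Of the standard 3, Psmb6 (caspase-like cutting) and Psmb7 (trypsin-like cutting) were lower, and Psmb5 (chymotrypsin-like cutting, the main target of proteasome inhibitor drugs) did not pass. Psmb7 ratios were -1.27, -1.46, -1.32, -1.01 and -1.32 on the Fzd8-CRD arrays, against -0.40, -0.29, -0.72 and -0.57 on the control arrays (difference -0.78, SE 0.13, adjusted p = 0.00827). Psmb6 ratios were -0.32, -0.26, 0.10, -0.24 and -0.63 on the Fzd8-CRD arrays, against 0.79, 0.14, 0.50 and 0.38 on the control arrays (difference -0.72, SE 0.18, adjusted p = 0.0262). Neither gene's groups overlapped, though the highest Fzd8-CRD value of Psmb6 was close to its lowest control, and its call was lost in 13 of 22 alternatives, among them leaving out any single array except Fzd8-CRD replicate 3 or control replicate 2. Psmb5 ratios were -0.55, -0.23, -0.51, -0.66 and -1.18 on the Fzd8-CRD arrays, against 0.42, -0.12, -0.07 and -0.25 on the control arrays (difference -0.62, SE 0.21, adjusted p = 0.0734). Its groups overlapped at Fzd8-CRD replicate 2 and control replicate 4. In Cy5 alone Psmb5 was lower (-0.84, adjusted p = 0.0393).

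The immune beta subunits are induced by interferon gamma and are abundant in leukocytes. Psmb8, which takes the place of Psmb5, was lower, and Psmb9 and Psmb10 did not pass. Psmb8 ratios were -0.69, -0.64, -1.04, -1.08 and -1.25 on the Fzd8-CRD arrays, against -0.10, 1.11, 0.33 and -0.11 on the control arrays, a difference of -1.25 (SE 0.26, adjusted p = 0.0152) and 2.37-fold lower. No Fzd8-CRD array reached the lowest control, and control replicate 2 was the highest of the 9. Psmb9 ratios were -0.76, -0.57, -1.79, -1.60 and -1.71 on the Fzd8-CRD arrays, against -0.95, 0.40, -0.23 and -0.32 on the control arrays (difference -1.01, SE 0.34, adjusted p = 0.0729), so that Fzd8-CRD replicates 1 and 2 overlapped the controls. Psmb10 ratios were -0.98, -0.57, -1.08, -1.16 and -1.75 on the Fzd8-CRD arrays, against -1.18, 0.075, -0.77 and -0.81 on the control arrays (difference -0.44, SE 0.29, adjusted p = 0.311). Control replicate 1 lay within the Fzd8-CRD range for both genes, as did control replicates 3 and 4 for Psmb10, and control replicate 2 was highest for both. Without control replicate 1 Psmb9 passed (-1.24, adjusted p = 0.0444). Without control replicate 2 the differences were -0.98 for Psmb8 (adjusted p = 0.0114), -0.79 for Psmb9 (adjusted p = 0.130) and -0.19 for Psmb10 (adjusted p = 0.614). On that array the median of 9 lymphocyte markers was 1.66 above the gene means, against -0.33 to -0.06 on the Fzd8-CRD arrays and -0.19 to -0.06 on the other controls. Macrophage and MHC class II markers had medians there of 1.24 and 2.05, against -0.48 to 0.07 and -1.19 to 0.32 on the Fzd8-CRD arrays and -0.12 to 0.07 and 0.13 to 0.26 on the other controls. Lower in Fzd8-CRD cells were 0 of 9 lymphocyte, 1 of 9 macrophage and 1 of 5 MHC class II markers, against 7.75% of all genes. Their differences, called or not, were negative for 8, 9 and 5 markers in that order, with medians of -0.32, -0.42 and -1.17. Cd79a and Itgam, markers of B cells and myeloid cells, exceeded background on no array of the 5 treated with Fzd8-CRD. Both passed the filter through the controls alone. Mrc1, the macrophage marker called, exceeded background on 1 of the 5. Above background on all 5 were 4 lymphocyte, 7 macrophage and 3 MHC class II markers, so these counts and medians rest partly on dim values. The part of cells with these markers in the immune subunit values was not tested. The median of the 3 immune subunits was -1.01, against -0.71 for the 14 standard core genes, but in Cy5 alone the order turned, with -0.64 against -0.71. The difference between the classes was not tested.

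**Figure D2:**
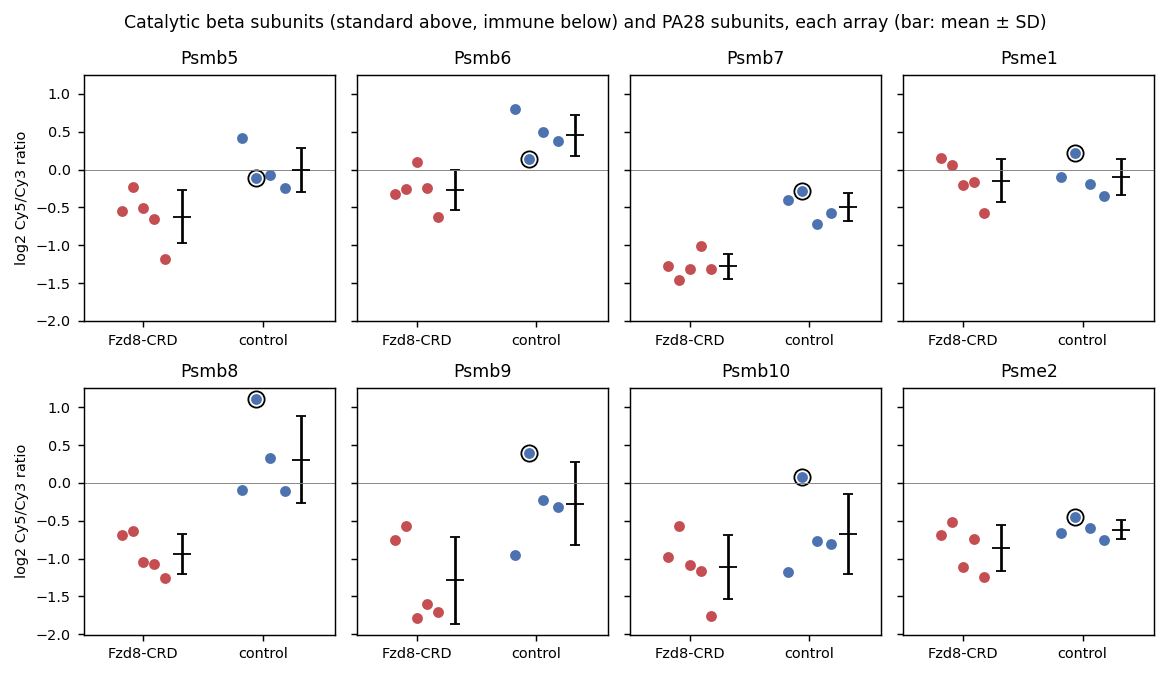
Log2 Cy5/Cy3 ratio on each array for the standard cutting subunits (top row) above their immune counterparts (bottom row), and for the PA28 subunits Psme1 and Psme2, with Fzd8-CRD arrays left and control arrays right, bars for the mean ± SD, and a ring on control replicate 2. Psmb6, Psmb7 and Psmb8 show no overlap between the groups, and the ringed array is the highest of the 9 for Psmb8, Psmb9 and Psmb10.

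The 2 Psmb8 probes are shown because they sample neighbouring stretches of 1 transcript and gave nearly the same difference, -1.25 and -1.20. They share 3 bases, in capitals, and lie on the plus strand of chromosome 17 in build mm8, per the array design, at chr17:33811038-33811097 and, across an intron, chr17:33811095-33811419.
Psmb8 probe 1: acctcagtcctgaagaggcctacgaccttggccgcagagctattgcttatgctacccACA
Psmb8 probe 2: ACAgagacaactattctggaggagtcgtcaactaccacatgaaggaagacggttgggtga

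The upstream regions of Psmb5 and Psmb6 and of their immune counterparts Psmb8 and Psmb9 are shown, because these pairs exchange in the particle and respond to different signals, and that of Psmd4 as a cap gene with the motif most frequent relative to all genes. Promoter windows from RefSeq (GRCm38.p6) were held for 36 of the 43 genes and run from 250 bases before to 50 bases after the start. A search for 6 motifs covered both strands, and no motif contains another. An antioxidant response element (TGACNNNGC), the site class bound by Nfe2l1 and Nfe2l2, was in 6 member windows, those of Psmb5, Psmb6, Psmc6, Psmd12, Psmd9 and Psme4 (16.7%, against 14.0% of 27025 genes and 16.5% of the tested genes). A gamma-activated site (TTCNNNGAA), a site class of interferon gamma signalling, was in 2 windows, those of Psmb8 and Psmd2 (5.6%, against 9.6% of all and 8.4% of tested genes). The 250 bases before the start are printed for 5 genes, with the motif in capitals. It is the antioxidant response element in Psmb5 (chr14:54617996-54618245, minus strand) and Psmb6 (chr11:70525107-70525356, plus strand), and the gamma-activated site in Psmb8 (chr17:34197945-34198194, plus strand). In Psmb9 (chr17:34187331-34187580, minus strand) it is a GC box (GGGCGG), and this window shares 275 bases with that of Tap1, the peptide transporter gene on the opposite strand. In Psmd4 (chr3:95042615-95042864, minus strand) it is an Ets site (CCGGAAG).
Psmb5: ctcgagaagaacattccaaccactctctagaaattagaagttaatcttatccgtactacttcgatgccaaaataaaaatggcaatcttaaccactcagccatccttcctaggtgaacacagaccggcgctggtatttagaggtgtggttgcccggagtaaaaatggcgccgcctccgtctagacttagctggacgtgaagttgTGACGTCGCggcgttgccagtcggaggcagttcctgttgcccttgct
Psmb6: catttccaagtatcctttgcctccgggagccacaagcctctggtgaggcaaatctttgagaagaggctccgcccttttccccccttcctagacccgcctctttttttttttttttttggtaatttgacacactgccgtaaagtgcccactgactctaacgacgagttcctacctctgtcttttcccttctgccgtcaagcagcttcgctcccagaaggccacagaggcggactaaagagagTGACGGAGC
Psmb8: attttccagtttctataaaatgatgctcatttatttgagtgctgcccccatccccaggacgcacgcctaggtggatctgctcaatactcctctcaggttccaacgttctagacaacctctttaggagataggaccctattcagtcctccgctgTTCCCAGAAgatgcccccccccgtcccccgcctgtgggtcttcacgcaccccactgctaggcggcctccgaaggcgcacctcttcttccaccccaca
Psmb9: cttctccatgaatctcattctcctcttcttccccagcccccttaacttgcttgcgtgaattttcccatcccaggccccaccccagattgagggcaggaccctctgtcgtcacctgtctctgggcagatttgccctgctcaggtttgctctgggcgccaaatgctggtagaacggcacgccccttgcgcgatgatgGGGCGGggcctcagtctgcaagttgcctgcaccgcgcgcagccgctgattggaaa
Psmd4: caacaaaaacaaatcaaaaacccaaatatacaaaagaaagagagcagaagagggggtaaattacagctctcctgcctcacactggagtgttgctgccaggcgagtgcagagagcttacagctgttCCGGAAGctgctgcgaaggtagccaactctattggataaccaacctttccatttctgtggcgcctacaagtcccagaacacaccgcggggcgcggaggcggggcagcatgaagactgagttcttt

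The Ets site was in 12 of the 36 windows (33.3%, against 9.9% of all and 17.0% of tested genes), and the 12 genes had a median difference of -0.36 with 4 lower, against -0.63 with 12 lower for the 24 without it. The GC box was in 22 windows (61.1%, against 38.2% of all and 62.8% of tested genes). A CCAAT box (CCAAT) was in 13 (36.1%, against 41.1% and 42.3%), and those 13 had a median of -0.78 with 8 lower, against -0.48 with 8 lower for the other 23. An interferon-stimulated response element, searched as GAAA repeated after 2 bases on the same strand, was in 4, those of Psmb3, Psmd4, Psmd9 and Psme1 (11.1%, against 4.0% and 3.7%), of which 3 were lower. The 6 genes with an antioxidant response element had a median of -0.44, against -0.63 for the 30 without it. These matches describe the letters in the windows, and differences between the motif groups were not tested.

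The ATPases of the 19S cap form the ring that unfolds substrates. All 6 differences were negative, with a median of -0.40, and Psmc3 and Psmc1 were lower. Psmc3 ratios were -0.98, -1.09, -0.77, -0.86 and -0.76 on the Fzd8-CRD arrays, against 0.09, 0.081, 0.014 and -0.23 on the control arrays (difference -0.88, SE 0.12, adjusted p = 0.00466). Its groups lay far apart, with little spread in either. Psmc1 ratios were -0.85, -0.91, -1.15, -1.04 and -1.23 on the Fzd8-CRD arrays, against -0.66, -0.51, -0.39 and -0.50 on the control arrays (difference -0.52, SE 0.12, adjusted p = 0.0211), again without overlap, and its call was lost without control replicate 3 or 4. Psmc4 (-0.48, adjusted p = 0.0655) did not overlap either but did not pass, and its other probe was lower (-0.87, adjusted p = 0.00759 over all probes). Psmc2 (-0.32), Psmc6 (-0.29) and Psmc5 (-0.14) did not pass. The 2 Psmc5 probes gave unlike values and are shown for that reason, probe 1, which stands for the gene, at chr11:106078968-106079152 with -0.14 and probe 2 at chr11:106077339-106077538 with -0.72 (adjusted p = 0.0657 over all probes), both across an intron on the plus strand of mm8.
Psmc5 probe 1: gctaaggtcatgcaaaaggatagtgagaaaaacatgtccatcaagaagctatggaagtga
Psmc5 probe 2: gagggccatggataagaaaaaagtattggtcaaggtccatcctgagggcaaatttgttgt

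The non-ATPase subunits bind ubiquitin chains, remove them and hold the lid together. Of 11, 9 were negative and 4 were lower, with a median of -0.52. Psmd14, the deubiquitinase that strips ubiquitin from substrates as they enter, had ratios of -1.82, -2.14, -1.90, -1.93 and -2.01 on the Fzd8-CRD arrays, against -0.73, -1.15, -0.84 and -0.65 on the control arrays, a difference of -1.12 (SE 0.13, adjusted p = 0.00293) and 2.17-fold lower. Its second probe gave -1.43. The groups did not overlap on either probe, and the margin was narrower on the second. Psmd4, a ubiquitin receptor of the cap, had ratios of -0.49, -0.70, -0.70, -0.40 and -0.92 on the Fzd8-CRD arrays, against 0.23, 1.52, 0.22 and 0.026 on the control arrays (difference -1.14, SE 0.29, adjusted p = 0.0295). Control replicate 2 was far above the other controls, and without it the difference was -0.80 (adjusted p = 0.00962), while the second Psmd4 probe gave -0.38 and did not pass (adjusted p = 0.377 over all probes). With the mean of its probes Psmd4 had -0.76 and did not pass (adjusted p = 0.0683). The Psmd4 call was lost without any 1 of Fzd8-CRD replicates 1, 2, 3 and 5 and control replicate 3. The lid subunits Psmd8 and Psmd13 were also lower. Psmd8 ratios were -0.72, -0.91, -0.077, -0.78 and -0.55 on the Fzd8-CRD arrays, against 0.50, 0.25, 0.39 and 0.53 on the control arrays (difference -1.03, SE 0.17, adjusted p = 0.00802). Psmd13 ratios were -1.19, -1.36, -0.76, -1.24 and -0.73 on the Fzd8-CRD arrays, against -0.17, -0.28, 0.048 and -0.0095 on the control arrays (difference -0.95, SE 0.16, adjusted p = 0.00864). Neither overlapped. Psmd7, the partner of Psmd14 in the lid, had -0.52 (adjusted p = 0.0732) on its brightest probe and -0.99 (adjusted p = 0.00537 over all probes) and -0.21 on the others. Psmd1 (-0.56), Psmd6 (-0.39), Psmd12 (-0.30), Psmd2 (-0.05), Psmd3 (0.07) and Psmd11 (0.20) did not pass.

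The assembly factors Psmd5, Psmd9 and Psmd10 escort cap ATPases into place and leave the finished particle. All 3 were lower, with a median of -0.63. Psmd10, also known as gankyrin, had ratios of -0.78, -0.65, -0.76, -1.28 and -0.87 on the Fzd8-CRD arrays, against -0.30, 0.10, -0.48 and -0.15 on the control arrays (difference -0.66, SE 0.17, adjusted p = 0.0294). Psmd5 had -1.49, -1.68, -1.96, -1.96 and -1.76 on the Fzd8-CRD arrays, against -1.24, -1.45, -1.01 and -0.87 on the control arrays (difference -0.63, SE 0.16, adjusted p = 0.0281). Psmd9 had -0.44, -0.18, -0.53, -0.62 and -0.48 on the Fzd8-CRD arrays, against 0.14, 0.24, 0.12 and 0.036 on the control arrays (difference -0.58, SE 0.12, adjusted p = 0.0138). None of the 3 overlapped, the margin was narrow for Psmd5, and the second Psmd9 probe gave -0.22 (adjusted p = 0.363 over all probes). The Psmd5 call was lost without each of Fzd8-CRD replicates 3, 4 and 5 and control replicates 3 and 4, and that of Psmd10 without Fzd8-CRD replicates 1 and 5 and control replicate 4. Other assembly chaperones lay outside the naming rule and were found through accessions. Psmg1, Psmg2 and Psmg3 had differences of 0.16, -0.24 and -0.49, and none passed.

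**Figure D3:**
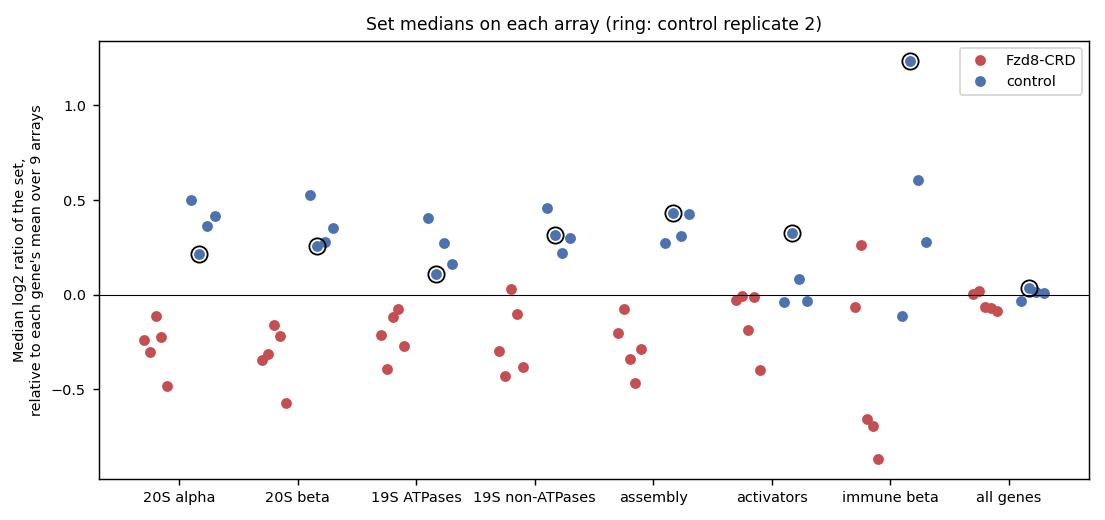
Median log2 ratio of each class on each array, relative to each gene's mean over the 9 arrays, with Fzd8-CRD arrays left and control arrays right in each class and a ring on control replicate 2. The 2 groups stand apart for the core rings, both cap classes and the assembly factors, overlap for the activators and the immune beta subunits, and lie near 0 for all genes.

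The activators open the core without ubiquitin, and 0 of 4 were called, with a median of -0.14. Psme1 and Psme2 form PA28, which interferon gamma induces together with the immune subunits. Psme1 ratios were 0.15, 0.063, -0.21, -0.16 and -0.57 on the Fzd8-CRD arrays, against -0.10, 0.22, -0.19 and -0.34 on the control arrays (difference -0.043, SE 0.17, adjusted p = 0.884), and its sign changed in 5 alternatives. Psme2 ratios were -0.68, -0.52, -1.11, -0.75 and -1.24 on the Fzd8-CRD arrays, against -0.67, -0.45, -0.60 and -0.76 on the control arrays (difference -0.24, SE 0.17, adjusted p = 0.334). Both genes' groups overlapped, and the Psme2 probes carry the name of a near-identical copy, Psme2b-ps, in the control files, so their source is uncertain. Psme3, the nuclear activator, had ratios of -0.72, -0.79, -0.54, -0.39 and -0.61 on the Fzd8-CRD arrays, against -0.36, 1.68, -0.24 and -0.31 on the control arrays (difference -0.80, SE 0.39, adjusted p = 0.187). Control replicate 2 was the 1 control above 0, and without it the difference was -0.31 (adjusted p = 0.101). Psme4, the activator PA200, had a difference of 0.12 on its brightest probe and -0.47 to 0.15 over its 4 probes. Psmf1, an inhibitor of the core in vitro, had ratios of -0.92, -1.002, -0.96, -1.10 and -0.61 on the Fzd8-CRD arrays, against -0.44, 0.98, -0.34 and -0.56 on the control arrays (difference -0.82, SE 0.29, adjusted p = 0.0891). It too was highest on control replicate 2, and without that array the difference was -0.47 (adjusted p = 0.0409), whereas its other probes gave -0.06 and 0.10. The Psmf1 difference was -1.50 by the scanner's own ratio (adjusted p = 0.015), which the authors' deposited table also gives, and -0.90 in Cy5 alone (adjusted p = 0.0296), but -0.26 (adjusted p = 0.222) with the mean of its probes.

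The 16 genes with several kept probes were compared probe by probe. In 4 of them every probe was lower, namely Psma4, Psmb3, Psmb8 and Psmd14. In 4 others (Psmc4, Psmd4, Psmd7 and Psmd9) some probes were lower and some did not pass. In 8 no probe passed. The probes of 1 gene differed by over 0.5 in 8 genes, and 3 genes had probes of both signs.

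Each dye was then read alone after quantile normalization, because the ratio also carries the pooled RNA. In Cy5 alone 22 of the 43 genes were lower and 0 higher (8.71% and 10.1% of all genes), with a median of -0.61. In Cy3 alone 59.1% of all genes differed between the groups, and among the members 13 were higher and 19 lower, with a median of -0.08. Of the 19 genes lower by ratio, all 19 were negative and 12 were lower in Cy5 alone. In Cy3 alone 8 of the 19 were higher and 5 lower. Psma3, Psmb3, Psmb6, Psma5, Psmd8, Psmd13 and Psmc1 are the 7 that did not pass in Cy5 alone, and their Cy3 differences were 0.12 to 0.40. For Psma3 the difference was -0.87 in Cy5 and 0.37 in Cy3. Psmc5 showed the opposite, with -0.93 in Cy5 (adjusted p = 0.0043), -0.80 in Cy3 and -0.14 in the ratio. Psme3 was 0.28 in Cy5 and 0.96 in Cy3, against -0.80 in the ratio. For Psmb8 the values were -1.35 in Cy5 (adjusted p = 0.00691) and -0.11 in Cy3. Of the 24 members not called by ratio, 10 were lower in Cy5 alone, Psmb5 among them (-0.84, adjusted p = 0.0393). The sources used here do not say whether both groups' arrays carried the same pooled RNA.

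**Figure D4:**
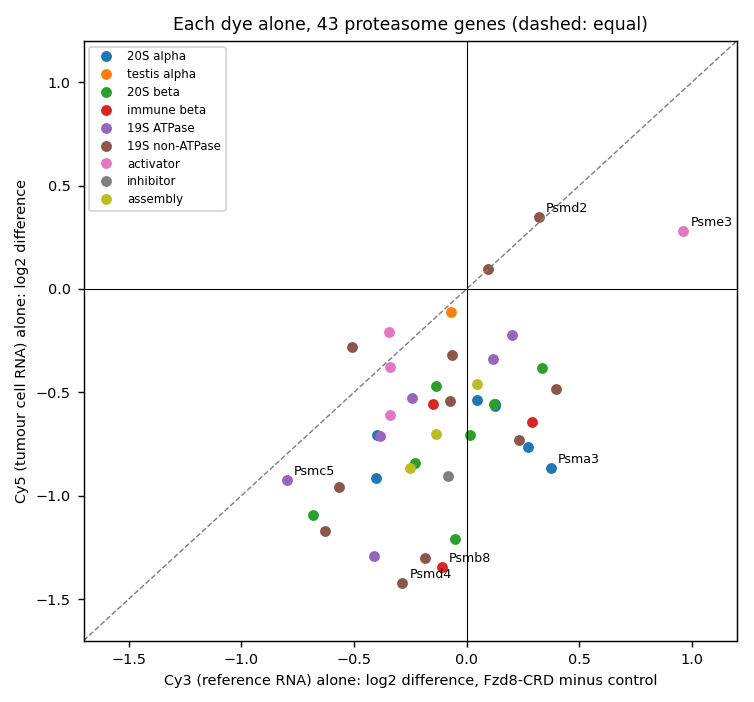
Log2 difference, Fzd8-CRD minus control, of each dye alone for the 43 proteasome genes, with Cy3 (pooled RNA) on the horizontal axis and Cy5 (tumour cell RNA) on the vertical axis. Points lie below 0 in Cy5 for 40 genes and on both sides of 0 in Cy3, and Psmc5 and Psme3 stand at the 2 ends of Cy3 with -0.80 and 0.96.

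Genes that work with the proteasome were read against the share of all genes called, 14.3%. Of 27 ubiquitin genes, shuttles, cap-associated enzymes and regulators, all measured, 4 were higher and 1 lower in Fzd8-CRD cells, where 6.6% of all genes were higher and 7.75% lower. Their median was -0.25, against -0.07 over all genes. Nfe2l2, the oxidative stress transcription factor that can raise subunit genes, had ratios of 0.65, 0.60, 0.85, 1.62 and 1.13 on the Fzd8-CRD arrays, against -0.88, 0.14, -0.12 and 0.035 on the control arrays (difference 1.18, SE 0.27, adjusted p = 0.02). Ddi2, the protease that activates Nfe2l1, had 1.68, 1.95, 1.97, 1.81 and 1.83 on the Fzd8-CRD arrays, against 0.91, 0.88, 1.45 and 1.42 on the control arrays (difference 0.68, SE 0.15, adjusted p = 0.0201). Nfe2l1 itself had -0.14 (adjusted p = 0.622). Nfe2l2 and Ddi2 were higher on every Fzd8-CRD array than on any control array, and the Nfe2l2 call was lost without control replicate 3 (adjusted p = 0.0506). Ubqln2, a ubiquitin shuttle, had ratios of -0.045, -0.20, -0.26, 0.35 and -0.22 on the Fzd8-CRD arrays, against -1.14, -0.47, -1.08 and -1.35 on the control arrays (difference 0.94, SE 0.20, adjusted p = 0.0167). In Cy5 alone its difference was 0.35 (adjusted p = 0.162), and in Cy3 alone it was -0.63. Ecpas, a scaffold that binds the cap, had -0.65, -0.57, -0.67, -0.75 and -0.84 on the Fzd8-CRD arrays, against -1.27, -0.999, -1.08 and -1.07 on the control arrays (difference 0.41, SE 0.11, adjusted p = 0.0347), but its difference was -0.61 in Cy5 alone and -0.04 after scaling between arrays. Txnl1, a thioredoxin-like protein bound to the cap, had -0.53, -0.50, -0.086, -0.23 and -0.64 on the Fzd8-CRD arrays, against 0.53, 0.14, 0.11 and 0.68 on the control arrays (difference -0.76, SE 0.17, adjusted p = 0.0194), and was -0.16 in Cy5 alone (adjusted p = 0.588) and -0.29 with the mean of its probes (adjusted p = 0.122). The Txnl1 call was also lost by the scanner's own ratio and without Fzd8-CRD replicate 1 or control replicate 4. The Ecpas call was lost without any 1 array except Fzd8-CRD replicate 5 or control replicate 2. The groups of Ubqln2, Ecpas and Txnl1 did not overlap in the ratio. Of the partners built into the particle, Adrm1 had 0.01, Sem1 -0.35 and the core assembly protein Pomp -0.52 (adjusted p = 0.124), and none passed.

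The antigen presentation and interferon genes that work beside the immune subunits gave no call. Of 11 listed genes 9 were measured, 0 passed at an adjusted p under 0.05, and the median was -0.20. At the 2 ends were Tap2, a subunit of the peptide transporter, with ratios of 0.19, 0.0019, -0.081, -0.67 and -0.22 on the Fzd8-CRD arrays, against 0.77, 1.29, 0.58 and -0.04 on the control arrays (difference -0.80, SE 0.26, adjusted p = 0.0711), and Irf1, an interferon-induced transcription factor, with 1.70, 1.98, 1.30, 0.92 and 1.29 on the Fzd8-CRD arrays, against 0.26, 0.91, 1.13 and 1.24 on the control arrays (difference 0.55, SE 0.26, adjusted p = 0.174). Both overlapped between the groups. Without control replicate 4 Tap2 passed (-1.03, adjusted p = 0.0334), and with the mean of its probes Irf1 had 0.19. Tap1, which lies head to head with Psmb9, had a difference of -0.52 (adjusted p = 0.276).

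**Figure D5:**
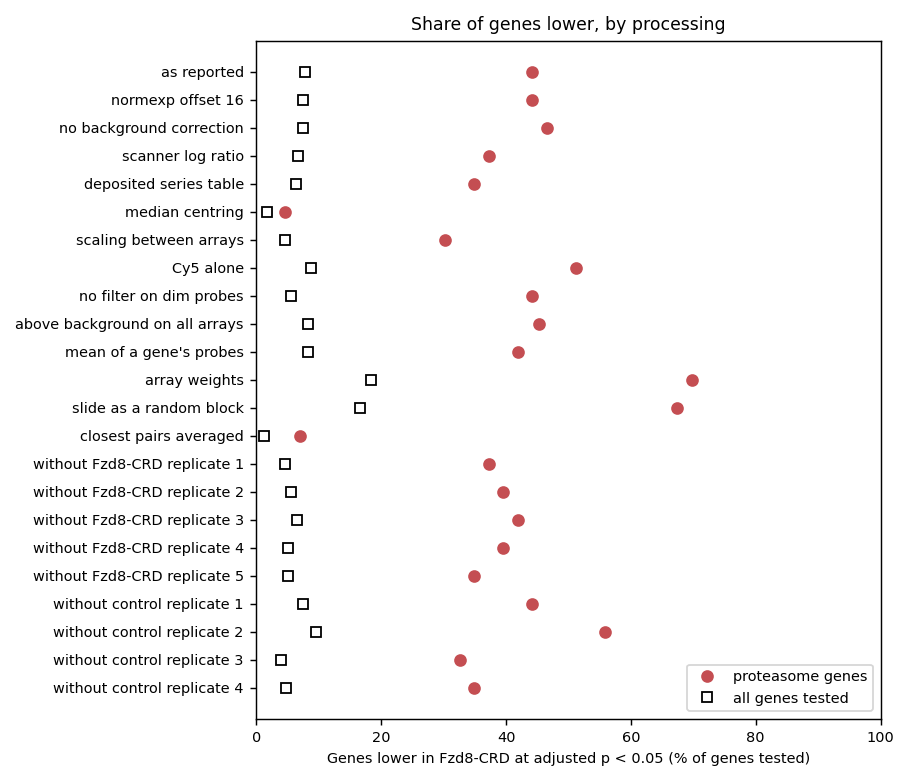
Share of the proteasome genes (filled circles) and of all genes tested (open squares) that were lower in Fzd8-CRD cells at an adjusted p under 0.05, in percent, for the reported processing and each of 22 alternatives. The proteasome share lies above that of all genes in every row, at 44.2% against 7.75% as reported, and both are low with median centring and with the closest pairs averaged.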

How the data were processed

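RNA of sorted tumour cells (Cy5) and a pooled RNA (Cy3) had been hybridised to 9 arrays, per the labels. The labels describe the pool in 3 ways that disagree, so ratios are not levels. Per the file headers, the deposited intensity values (foreground means, background medians) and the log10 ratio of Cy5 to Cy3 come from Agilent Feature Extraction 9.5.3.1. The authors' deposited value matrix gives a linear ratio, and its log2 values correlated at 1 with the log ratio of the scanner files for each array, so scale and direction are known. Other deposited columns (flags, annotation) served as filters and names.

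Background was corrected with normexp (offset 50) and ratios were normalized by loess within each array, with control spots given no weight, in limma 3.58.1 under R 4.3.3 with the data.table package (1.17.8). Outlier spots (1229 over all arrays) were left out, and 0 were saturated. Spots of a probe were averaged, the 26835 probes with Cy5 above background on 4 or more arrays were kept, and a gene was represented by its brightest probe. Groups were compared with limma's moderated linear model over 18270 genes. The offset understates differences of dim genes. A simulation of 18270 genes held 200 changed genes. The share found was 8.96% for a change of 0.5 log2 units, 46.3% for 1 and 87.9% for 2. In it 6 unchanged genes were called. The real data had 2621 called genes, and there slide and scan day cannot be told apart from treatment. The simulated rates are therefore not error rates of the reported calls. With more genes called the adjusted threshold is also less strict, so the shares found do not give the sensitivity of the reported fit. The number of arrays limits the precision.

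Members and lists were chosen with earlier results of these data known. Values in every array are given for members past the threshold, Psmb5 to Psmb10, Psme1, Psme2 and the largest difference in each class, and of the other lists for genes past the threshold or else the 2 largest. Other genes named (Psmg1 to Psmg3, Nfe2l1, Adrm1, Sem1, Pomp, Tap1) were picked with their values in view, and 1 listed gene is not reported here. The alternatives were other background corrections (offset 16, none), the scanner's ratio, the deposited table, median centring, scaling, Cy5 alone, filters, probe averaging, array weights, slide as a random block, averaged array pairs and leaving out each array.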

Additional observations from a re-analysis of the deposited data

Results flagged for a closer look

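Among the 86 groups of member values (43 genes in 2 groups), 6 held an array far from the rest of its group, by a criterion that chance meets in about 1 group in 20. The share of groups is thus close to that. In 4 of the 6 the array was control replicate 2, which was the highest control for Psme3 (1.68), Psmd4 (1.52) and Psmf1 (0.98) and the lowest for Psma7 (-0.75). Control replicate 1 was the highest control for Psmc6 (0.12), and Fzd8-CRD replicate 5 the lowest of its group for Psmb4 (-0.996).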

How the results depend on the processing

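No paired analysis was possible because replicate numbers followed accession order and tie no array to one of the other group. No member was higher in any of the 22 alternatives, and between 38 and 41 of the 43 differences were negative (39 of 42 with the filter on all arrays). The number lower was 19 and moved to 2 with median centring, 3 with the closest pairs averaged (Fzd8-CRD replicates 1 and 2, control replicates 3 and 4), 30 with array weights and 29 with slide as a block, whose consensus correlation was -0.17. In the same order 613, 338, 6017 and 5502 genes were called in all, against 2621, and 3, 6, 41 and 41 probes of members were lower, against 25. All controls share 1 slide, so the block cannot separate slide from treatment, and its negative correlation lowers the SE of the difference. Scaling gave 1602 genes in all and moved the medians to -0.89 (members), -0.93 (core) and -0.65 (cap). Leaving out single arrays gave 14 to 24 members (14 without control replicate 3, 24 without control replicate 2), 20 to 32 member probes and 1340 to 3093 genes in all (1509 without Fzd8-CRD replicate 1, 1612 without control replicate 4). Of the 19 called members 0 passed in all 22 alternatives. Psmb1, Psmc3 and Psmd14 were lost with median centring alone and Psmb8 with averaged pairs alone (adjusted p = 0.0595). Partner genes called higher (4) were 1 with median centring or scaling, 0 with averaged pairs and 2 to 4 without single arrays. Those called lower (1) were 0 with the scanner's ratio, the deposited table, median centring, scaling or averaged pairs, 3 in Cy5 alone, 7 with array weights, 6 with the block and 0 to 4 without single arrays. Antigen genes called (0) were 2 with array weights, 1 in Cy5 alone or with the block and 0 to 1 without single arrays. Signs turned for Psme1 (0.0079 with the scanner's ratio and with the deposited table, 0.10 with array weights, -0.12 to 0.063 when single arrays were left out, positive for Fzd8-CRD replicate 5 and control replicate 2), Psme3 (0.28 in Cy5 alone), Ecpas (-0.61 in Cy5 alone, -0.036 with scaling) and the median of all genes (0.0083 in the deposited table). The cause was not tested.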
